A study of Bos taurus with 12 samples.

Results

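The miR-99/100 and miR-125 families were followed in extracellular vesicles (EVs) of bovine blood plasma through their 5 mature members bta-miR-99a-5p, bta-miR-99b, bta-miR-100, bta-miR-125a and bta-miR-125b (written below without the prefix bta-), 5 of the 783 bovine miRNAs in the deposited table. They were chosen by name, as partners of let-7 genes in genomic clusters, and all 5 were read in all 12 libraries.

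A miRNA is a short RNA that guides an Argonaute protein to messenger RNAs whose 3′ untranslated regions pair with its seed, the bases near its 5′ end, and the paired messages are then less translated or less stable. Genes of the miR-99/100, let-7 and miR-125 families lie side by side in animal genomes, a grouping that is conserved from insects to mammals, and neighbouring miRNA genes are often cut from a shared primary transcript. In mammals, miR-99a and miR-100 are known to target the growth kinase MTOR, miR-125b is known from blood cell formation, and let-7 restrains growth-promoting genes such as HMGA2 and LIN28.

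The libraries came from 6 Charolais- or Limousin-cross beef heifers, whose cycles had been synchronized with progesterone, a gonadotrophin-releasing hormone and prostaglandin. Plasma was taken from each heifer on Day 7 of an unstimulated cycle (U) and on Day 7 of a superstimulated cycle (S), in which follicle-stimulating hormone had been given and the animals inseminated. Heifers were classed as high (H) or low (L) responders by their number of corpora lutea in the S cycle, which gave 4 groups of 3 libraries (UL, UH, SL and SH), so the groups hold the extremes of the response and not its whole range. A U and an S library with the same number in the same response class were taken to be from the same heifer, so that UL1 and SL1 are heifer L1.

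The mature sequences show which members are related and how far they differ, and the reads were assigned by perfect match to such sequences. Each is given 5′ to 3′ as in the deposited table, with T for U and with the seed, bases 2 to 8, in capitals. The first 3 share 1 seed and form the miR-99/100 family.
bta-miR-99a-5p: aACCCGTAgatccgatcttgt
bta-miR-100: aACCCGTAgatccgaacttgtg
bta-miR-99b: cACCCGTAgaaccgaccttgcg
The other two share a seed of their own and form the miR-125 family.
bta-miR-125a: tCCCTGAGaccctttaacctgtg
bta-miR-125b: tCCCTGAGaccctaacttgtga
The let-7 partners of the clusters have another seed, common to all of them.
bta-let-7c: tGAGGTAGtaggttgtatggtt
bta-let-7a-5p: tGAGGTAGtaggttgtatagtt
bta-let-7e: tGAGGTAGgaggttgtatagt

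miR-99a-5p and miR-100 were the closest pair. Over the 21 positions that both have, 20 were identical and the difference was T16A, counted from 1 at the 5′ end of miR-99a-5p. miR-99b differed from miR-99a-5p by A1C, T11A, T16C and T21C. miR-125a and miR-125b were identical over the first 13 bases. Compared position by position without gaps, they differed further on by T14A, T15A, A16C, A17T, C18T, C19G and T22A. This list overstates the difference, since miR-125a has extra T bases after base 13 that put the rest out of step. let-7a-5p and let-7c differed by A19G only. A single misread base would move a molecule between miR-99a-5p and miR-100 or between let-7a-5p and let-7c, so the lower member of each pair is the less certain. Among the other miRNAs of the table, 1 had a member's seed, miR-670 (that of miR-125), and it had 0 reads in all libraries.

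The RefSeq gene table of the cattle assembly ARS-UCD2.0, which is not the build UMD3.1 used by the authors and serves here for gene names and order only, held all 9 genes looked up. MIR125B-2, MIRLET7C and MIR99A follow each other, and all lie within the long non-coding RNA gene LOC132345457. MIR125B-1, MIRLET7A-2 and MIR100 form the second set, with MIR125B-1 overlapping the non-coding genes LOC101903557 and LOC100848689. MIR99B, MIRLET7E and MIR125A form another, in which MIR125A overlaps the protein-coding gene SPACA6. Mature miR-125b is encoded at 2 loci and let-7a-5p at 3, so their reads cannot be assigned to a locus. miR-99a-5p, let-7c, miR-99b, let-7e and miR-125a were each taken with a single cluster.

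Reads of known miRNAs, from 21466 in SH2 to 77433 in SH3 with a median of 41190, were calculated back from the deposited values, scaled by TMM factors and are given as normalized reads. The 5 members together took 2.16 to 4.14% of the known miRNA reads of a library (median 2.70%). The miR-125 family held most of this, 1.93 to 3.80%, while the miR-99/100 family held 0.227 to 0.345%. By abundance in a library, miR-125b ranked between 7 and 19, miR-125a between 10 and 25, miR-99a-5p between 43 and 61, miR-99b between 42 and 75 and miR-100 between 73 and 120. Tissue markers in the same libraries covered wide ranges: summed normalized reads were 982 to 8362 for erythroid miRNAs (miR-451, miR-486, miR-144), 1676 to 3646 for leukocyte miRNAs (miR-150, miR-223, miR-142-5p, miR-142-3p, miR-155), 48.2 to 641 for the liver miRNA miR-122 and 37.7 to 1706 for muscle miRNAs (miR-1, miR-133a, miR-133b, miR-206). The ratio of miR-451 to miR-23a reads, a measure of haemolysis, was between 0.0854 and 0.639.

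miR-125b was the most abundant member on average, with 619 ± 337 normalized reads (SD, n = 12 libraries). In UL it had 469, 549 and 384 normalized reads, and in UH 438, 464 and 459. In SL it had 947, 379 and 502, and in SH 1140, 338 and 1362. The 6 U libraries were thus close together, with a highest-to-lowest ratio of 1.43, whereas the S libraries spanned a ratio of 4.04, and SL1, SH1 and SH3 were above every U library while SL2 and SH2 were below every U library. SH2, the lowest, was also the shallowest library, with 168 reads of miR-125b.

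miR-125a, which has the same seed, did not follow this order. Its normalized reads were 352, 768 and 580 in UL and 460, 971 and 298 in UH. They were 325, 655 and 570 in SL and 312, 595 and 408 in SH. UH2 was the highest library and UH3 the lowest, both of 1 group, so heifers within a group spanned the whole range of 3.26-fold. All 4 groups overlapped.

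miR-99a-5p had 50.7, 63.2 and 60.3 normalized reads in UL and 41.1, 49.8 and 60.2 in UH. In SL it had 67.5, 57.1 and 83.5, and in SH 72.5, 36.2 and 107.8. As for miR-125b, SH3 was the highest library and SH2 the lowest, and the U libraries (ratio 1.54) were closer together than the S libraries (ratio 2.98). The value of SH2 rests on 18 reads. The other arm of the same hairpin, miR-99a-3p, was at 0 to 6 reads per library, at or near the limit of detection.

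miR-99b had 48.9, 69.5 and 63.2 normalized reads in UL and 63.1, 93.9 and 25.6 in UH. In SL it had 33.2, 44.3 and 58.7, and in SH 28.2, 88.4 and 41.6. Its highest and lowest libraries were UH2 and UH3, the same as those of miR-125a, and SH2, low for miR-99a-5p and miR-125b, was the second highest for miR-99b.

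miR-100 was the scarcest member, with 6 to 33 reads per library. Its normalized reads were 8.30, 13.5 and 10.9 in UL, 16.2, 23.5 and 6.02 in UH, 30.7, 19.7 and 10.8 in SL and 17.5, 12.1 and 11.4 in SH. At this depth, counting error alone is wide: the exact 95% Poisson interval was 2.2 to 13.1 for the 6 reads of SH2 and 22.7 to 46.3 for the 33 reads of UH2. Intervals of this kind cover counting error only.

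**Figure D1:**
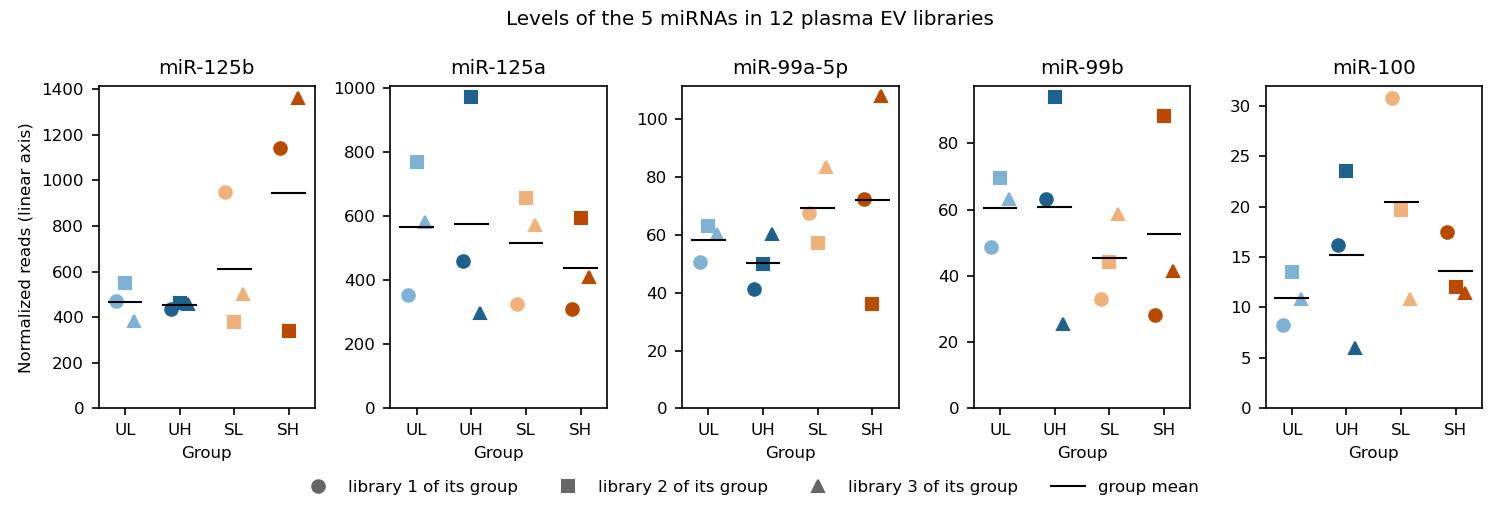
Normalized reads (linear axis from 0) of each of the 5 miRNAs in the 12 libraries, by group (UL, UH, SL, SH); symbols stand for library 1, 2 or 3 of a group and the bar for the mean of its 3 libraries. miR-125b lies between 384 and 549 in the U libraries and between 338 and 1362 in the S libraries, while miR-125a and miR-99b are highest in UH2 and lowest in UH3.

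In this order of levels, miR-125b and miR-125a did not differ beyond their spread. The log2 ratio of their reads within a library was 0.18 ± 1.05 (SD, n = 12), with miR-125b the higher in 5 libraries. miR-125a exceeded miR-99a-5p in 12 of 12 libraries, by 3.03 ± 0.78 on the log2 scale. miR-99a-5p and miR-99b again did not differ beyond their spread (0.24 ± 0.90, miR-99a-5p higher in 7 of 12). miR-99b exceeded miR-100 in 12 of 12 libraries, by 1.89 ± 0.83.

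The balance between the members of a family shifted from library to library. miR-125b made up 57.1, 41.7 and 39.9% of the miR-125 reads in UL and 48.8, 32.3 and 60.7% in UH. It made up 74.4, 36.7 and 46.8% in SL and 78.5, 36.2 and 76.9% in SH. The 3 highest shares were again those of SL1, SH1 and SH3, while those of SL2, SL3 and SH2 lay within the range of the U libraries. miR-99a-5p made up 29.8 to 65.6% of the miR-99/100 reads in the U libraries and 26.5 to 67.0% in the S libraries. Of the U libraries its share was highest in UH3, and of the S libraries it was highest in SH3 and lowest in SH2.

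**Figure D2:**
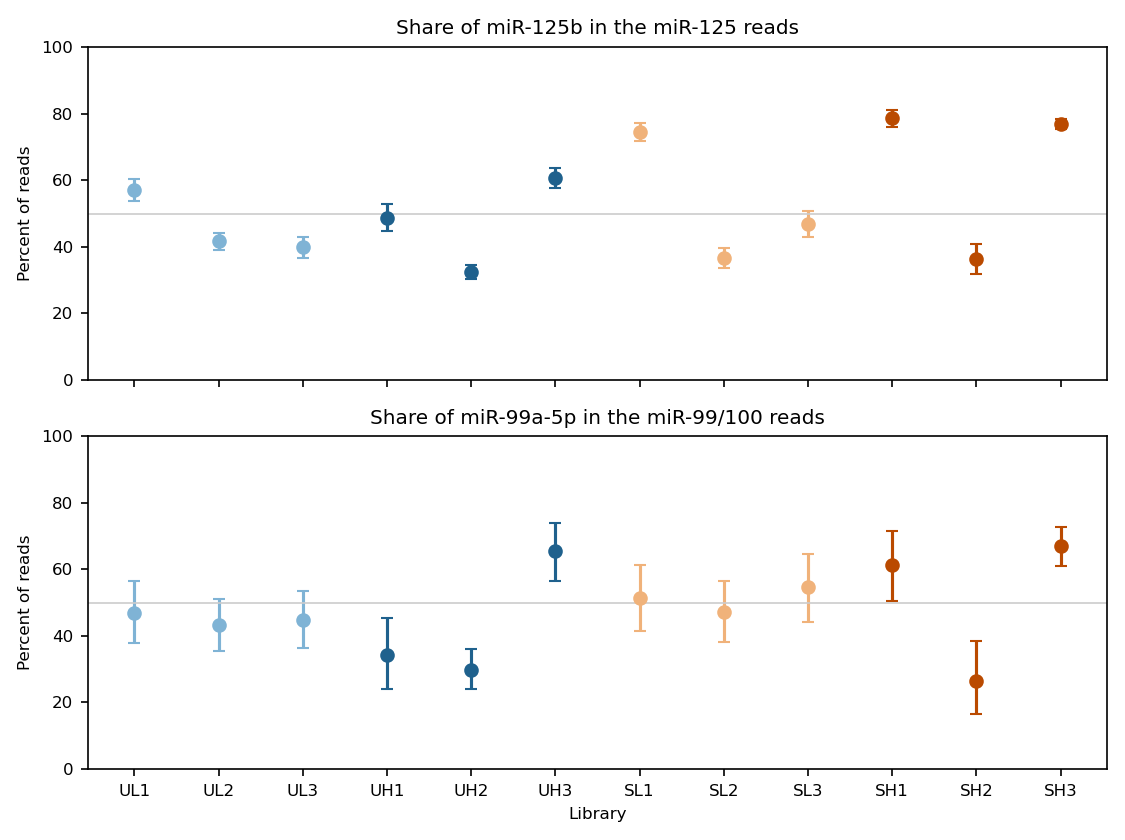
Share of miR-125b in the reads of miR-125a and miR-125b (upper panel) and of miR-99a-5p in those of miR-99a-5p, miR-99b and miR-100 (lower panel), in percent with exact 95% binomial intervals for each of the 12 libraries. SL1, SH1 and SH3 reach 74.4 to 78.5% miR-125b, above all other libraries, and the intervals are wider for the scarcer miR-99/100 family.

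A ratio within a library does not depend on how libraries are scaled, so the balance was compared between the cycles of each heifer. The log2 ratio of miR-125b to miR-125a was higher in the S than in the U library in 5 of 6 heifers, by 1.13 in L1, 0.41 in L3, 1.94 in H1, 0.25 in H2 and 1.1 in H3, and lower only in L2 (-0.31). The mean difference was 0.76 ± 0.80 (SD over 6 heifers), and the two-sided exact sign-flip permutation test gave p = 0.094, against a smallest possible p of 0.031. The log2 ratio of miR-99a-5p to miR-99b was likewise higher in S in 5 of 6 heifers, with a mean difference of 0.63 ± 0.80 and the same exact permutation p = 0.094. It was lower only in H2 (-0.37). Neither difference passed the threshold of 0.05. Between groups of 3 libraries, for which the exact permutation test cannot give less than 0.1, p was 0.3 to 1 for the ratio of the miR-125 pair and 0.1 to 1 for that of the miR-99 pair, with the lowest value for SL vs. UL (mean difference 0.68).

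The design asks which miRNAs differ between high and low responders before and after superstimulation, and between the cycles within each response class. No member was called in any of these comparisons, where called means a log2 fold change of 1 or more in size together with an unadjusted limma p no higher than 0.05. A positive log2 fold change means higher in the group named first, and values are on the log2(normalized reads + 1) scale, which understates the change of miR-100.

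In UH vs. UL, 0 of 5 members were called, against 2.64% of all 227 miRNAs tested, and for 0 of 5 the groups did not overlap (7.49% of all). The log2 fold changes were -0.21 for miR-99a-5p, -0.16 for miR-99b, 0.29 for miR-100, -0.08 for miR-125a and -0.03 for miR-125b, and their median of -0.08 compares with 0.04 for all miRNAs. The value was best bounded for miR-125b, with a 95% interval from -0.58 to 0.52. In limma, the adjusted p of the members was 0.929 or above.

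In SH vs. SL, 0 of 5 members were called (background 5.47% of 201), and the groups of all 5 overlapped (background of groups apart 8.96%). miR-125b had the largest difference, 0.51 (SE 0.55, 95% interval -0.71 to 1.74, limma adjusted p = 0.77), with SH2 below all SL libraries and SH1 and SH3 above them. miR-100 was at -0.46, miR-125a at -0.23, miR-99a-5p at -0.06 and miR-99b at 0.09. The median of the members was -0.06, and that of all miRNAs -0.08.

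In SH vs. UH, the change of high responders between cycles, 0 of 5 members were called (background 5.66% of 212) and all groups overlapped (background of groups apart 7.55%). miR-125b again had the largest difference, 0.83 (SE 0.50, 95% interval -0.20 to 1.86, unadjusted p = 0.11, limma adjusted p = 0.74). It went from 438 to 1140 normalized reads in H1 and from 459 to 1362 in H3, and from 464 to 338 in H2. miR-99a-5p was at 0.39 (SE 0.51), with the same signs by heifer. miR-99b was at -0.18, miR-125a at -0.27 and miR-100 at 0.01. The members' median was 0.01 and that of all miRNAs -0.14. let-7c, the partner of miR-99a-5p and miR-125b, was called here, at 1.31 (SE 0.55), and did not pass adjustment (limma adjusted p = 0.74).

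The estimates of miR-125b and let-7c were lower with the library SH2 than without it. The call of let-7c was lost when any other library of SH or UH was left out. Without SH2, miR-125b was called in SH vs. UH at 1.46 (SE 0.46, limma adjusted p = 0.034), as was let-7c at 1.98 (SE 0.52, adjusted p = 0.0076). At the same time 11.5% of all miRNAs were called in that fit, 24 of 209, and 12 of these had an adjusted p under 0.05. In SH vs. SL without SH2, miR-125b was called at 1.14 (adjusted p = 0.22) beside 17.3% of all miRNAs. In both fits the 2 libraries left in SH are those that stood highest for miR-125b.

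In SL vs. UL, 0 of 5 members were called (background 2.34% of 214, or 3 miRNAs in place of 5 with the heifer as a block), and all groups overlapped (background of groups apart 7.94%). miR-100 had the largest difference, 0.76 (SE 0.50, 95% interval -0.35 to 1.87, limma adjusted p = 0.70). It was called at 1.13 (adjusted p = 0.71) without SL3, its lowest SL library with 7 reads, in a fit that called 3.3% of all miRNAs. miR-125b was at 0.29, and at -0.084 without SL1. miR-99a-5p was at 0.24, miR-99b at -0.43 and miR-125a at -0.12. The members' median was 0.24, against -0.07 for all miRNAs.

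Over all heifers, S vs. U, 0 of 5 members were called (background 5.46% of 238). miR-125b was at 0.56 (SE 0.31, 95% interval -0.08 to 1.2, limma adjusted p = 0.71), higher in S in 4 of 6 heifers, and miR-99a-5p at 0.32 (SE 0.27), also higher in 4 of 6. miR-100 was at 0.38, miR-99b at -0.30 and miR-125a at -0.20, and both of the last were lower in S in 5 of 6 heifers, the exception being H3. The members' median was 0.32, that of all miRNAs -0.13. let-7c came closest to a call, 0.98 (SE 0.33, unadjusted p = 0.0080, limma adjusted p = 0.56), and the scarce arm miR-99a-3p was called at -1.26 (SE 0.55, adjusted p = 0.59) on at most 6 reads in a library.

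The interaction of cycle and response, which asks whether the change between cycles differed between H and L heifers, called 0 of 5 members (background 5.04% of 238). Its estimates were 0.54 for miR-125b (SE 0.62), 0.25 for miR-99b, 0.15 for miR-99a-5p, -0.15 for miR-125a and -0.75 for miR-100 (SE 0.83), with limma adjusted p of 0.937 or above. Without SH2 that of miR-125b was 1.17 (adjusted p = 0.42), where 8.86% of all miRNAs were called. Across the 6 comparisons limma gave an adjusted p under 0.05 for 0 miRNAs of any kind, while the unadjusted p was no higher than 0.05 for between 6 and 19 of them.

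**Figure D3:**
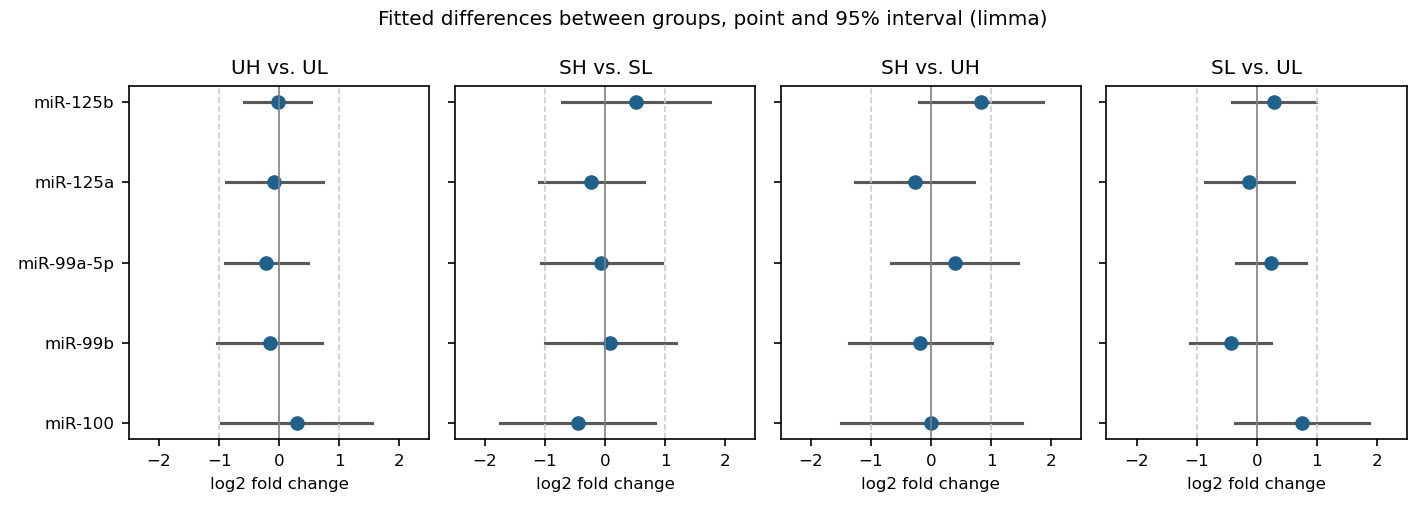
Log2 fold change of each of the 5 miRNAs in UH vs. UL, SH vs. SL, SH vs. UH and SL vs. UL (limma estimate as a point, 95% interval as a line, dashed lines at -1 and 1). Every interval includes 0, and the largest estimate is that of miR-125b in SH vs. UH, 0.83.

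The joint variation of cluster partners was examined within each cycle, so that each of the 6 heifers entered once. For 9 pairs of neighbours in 2 cycles, 18 relations in all, Pearson's r and Spearman's rho were calculated on log2(normalized reads + 1) with exact permutation p-values and Benjamini-Hochberg adjustment over the 18. No measure split into separate clusters of libraries by the gap criterion, in which 1 gap takes more than 0.5 of the range. Pairs outside the clusters were not examined within a cycle, so these values do not show whether joint variation is particular to neighbours.

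The miRNAs of MIR99B, MIRLET7E and MIR125A varied together in the U cycle. Each had its highest U value in UH2 and its lowest in UH3. The same held for miR-100 of another cluster, with 23.5 and 6.02 normalized reads. miR-99b and miR-125a had r = 0.89 (exact permutation p = 0.0042, adjusted p = 0.038) and rho = 1.0 (exact p = 0.0028, adjusted p = 0.050), so that the 6 heifers had the same order for both. let-7e, the gene between them, had r = 0.97 with miR-125a (exact p = 0.0056, adjusted p = 0.038) and r = 0.89 with miR-99b (exact p = 0.0083, adjusted p = 0.038). For both of these pairs of let-7e, rho was 0.94 (exact p = 0.017, adjusted p = 0.060). Without the 2 libraries farthest from the median, UH2 and UH3, r was 0.91 for miR-99b and miR-125a, 0.91 for let-7e and miR-125a and 0.99 for miR-99b and let-7e, with exact permutation p of 0.13, 0.17 and 0.083 over the 4 libraries left. So few libraries have too few orderings for a small exact p, so these p-values do not show that a relation weakened.

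In the S cycle the pair of miR-99b and miR-125a had r = 0.79 (exact p = 0.060, adjusted p = 0.18) and rho = 0.83. let-7e no longer varied with them, at r = -0.29 with miR-125a and -0.12 with miR-99b (exact p = 0.57 and 0.83). The largest departure was SH1, the highest S library for let-7e (234 normalized reads) and the lowest for both miR-99b and miR-125a. Whether these relations differed between the cycles was not tested.

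Among miR-99a-5p, let-7c and miR-125b the relation of let-7c and miR-125b was the closest. In the S cycle r was 0.90 (exact p = 0.013, adjusted p = 0.045) and rho 0.94 (exact p = 0.017, adjusted p = 0.060). Without SH1 and SH2 r was 0.94, with an exact permutation p of 0.083 over the libraries left, again too few for a small p. In the U cycle, in which both varied little, r was 0.75 (exact p = 0.090, adjusted p = 0.20). miR-99a-5p had r = 0.75 with miR-125b in the S cycle (exact p = 0.068) and 0.66 with let-7c (exact p = 0.15), and both values rest in part on SH2 and SH3, without which they were 0.29 and 0.47. In the U cycle miR-99a-5p had r = 0.21 with miR-125b and -0.03 with let-7c (exact p = 0.72 and 0.93), and 0.59 and 0.33 with library sizes in place of TMM factors (exact p = 0.28 and 0.58).

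let-7c itself had 1042, 1442 and 926 normalized reads in UL, 1282, 1016 and 1131 in UH, 2458, 1105 and 1986 in SL and 5986, 1101 and 3384 in SH. SL1, SH1 and SH3, the libraries that were highest for miR-125b, were also the 3 highest for let-7c. Their order differed, with SH1 the highest library for let-7c and SH3 for miR-125b.

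Among miR-100, let-7a-5p and miR-125b no relation had an exact p below 0.05 under both scalings. miR-100 and let-7a-5p had r = 0.95 in the U cycle (exact p = 0.0069, adjusted p = 0.038) and rho = 0.94 (exact p = 0.017, adjusted p = 0.060). With library sizes in place of TMM factors, this r went to 0.76 (exact p = 0.081). In the S cycle r was 0.26, and 0.49 with library sizes. miR-100 and miR-125b had r = 0.08 and 0.19 in the U and S cycles, and let-7a-5p and miR-125b 0.35 and -0.15. With library sizes only, the U values of these pairs turned to -0.76 and -0.28. let-7a-5p was steady over all libraries, between 3752 and 6861 normalized reads.

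**Figure D4:**
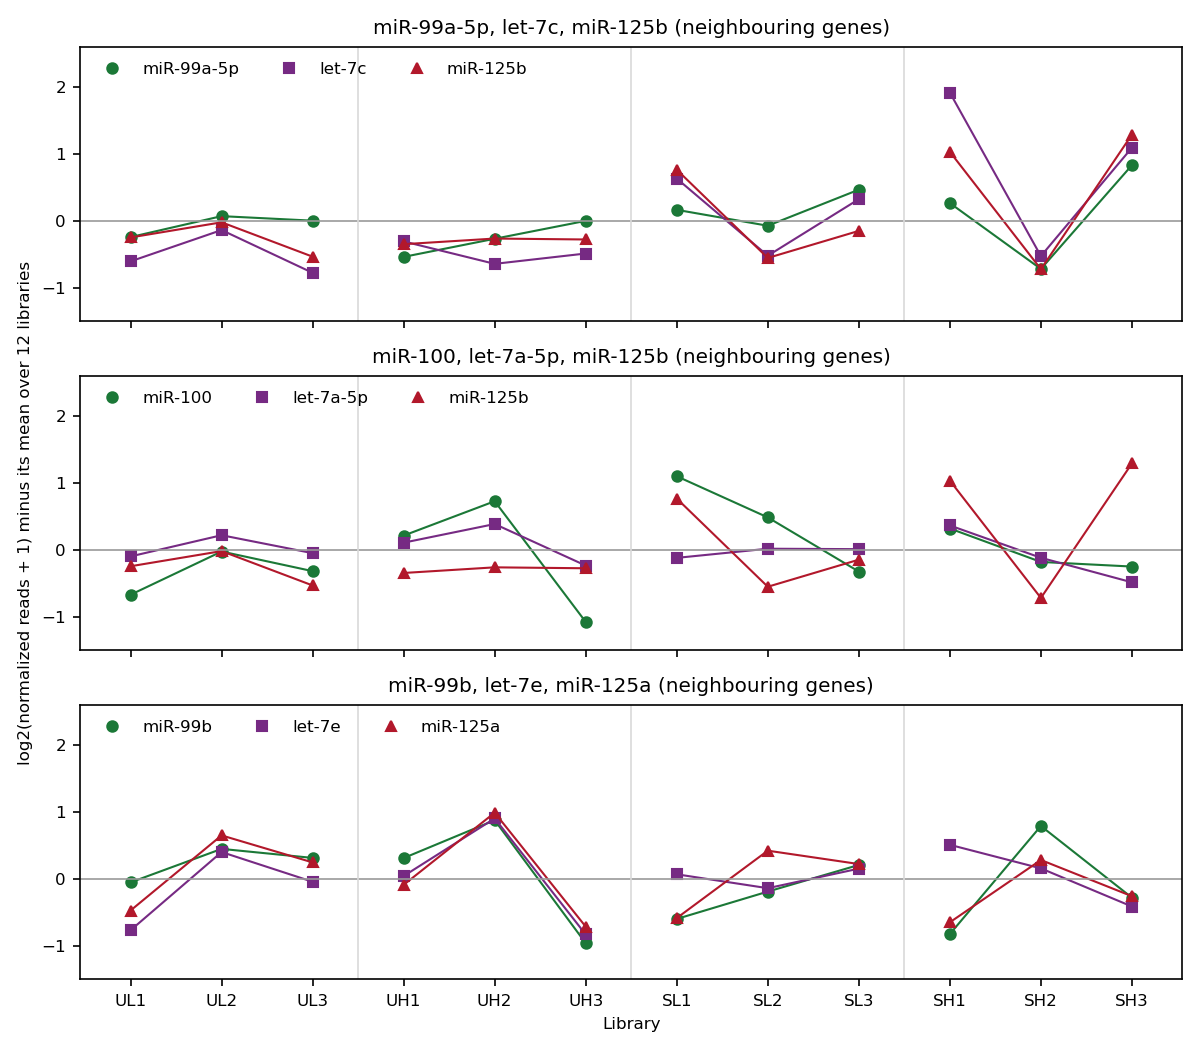
Log2(normalized reads + 1) of the 3 miRNAs of each gene cluster in the 12 libraries, as the difference from the mean of each miRNA over all libraries; vertical lines separate the groups and lines join libraries of a group. let-7c and miR-125b rise and fall together in the S libraries, miR-99b, let-7e and miR-125a follow each other in the U libraries, and let-7e leaves the other two in SH1.

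Over all 12 libraries, and among the 106 other miRNAs that averaged 10 reads or more, the likeness of patterns is given as a description without a test, since libraries of 1 heifer enter in pairs and all miRNAs of a library share its depth and scaling. miR-125a was the miRNA most like miR-99b, and miR-99b the most like miR-125a (r = 0.85), followed for both by miR-1468 (0.82 and 0.81) and miR-30a-5p (0.77 and 0.78). miR-125b was most like miR-199a-5p (0.92), let-7c (0.90) and miR-199a-3p (0.84). miR-99a-5p was most like miR-125b (0.75), then miR-379 (0.67) and miR-199a-5p (0.66), with let-7c at rank 5 (0.66). miR-100 was most like let-7e (0.68), miR-127 (0.66) and miR-27a-3p (0.57), none of them a gene of its own cluster.

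Members with the same seed had low or negative values. miR-125a and miR-125b had r = -0.50, miR-99a-5p and miR-99b -0.49 and miR-99a-5p and miR-100 -0.05. The median r over the 106 miRNAs was 0.10 for miR-99a-5p, -0.04 for miR-99b, -0.01 for miR-100, -0.0011 for miR-125a and 0.04 for miR-125b. After the mean of each group had been taken off, r was 0.86 for miR-99b and miR-125a, 0.88 for let-7c and miR-125b, 0.76 for miR-99a-5p and miR-125b and -0.45 for miR-125a and miR-125b. These neighbours were then no longer the most alike of the 106 miRNAs. miR-125a was at rank 4 for miR-99b, miR-99b at rank 3 for miR-125a and miR-125b at rank 4 for miR-99a-5p. let-7c stayed at rank 2 for miR-125b.

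**Figure D5:**
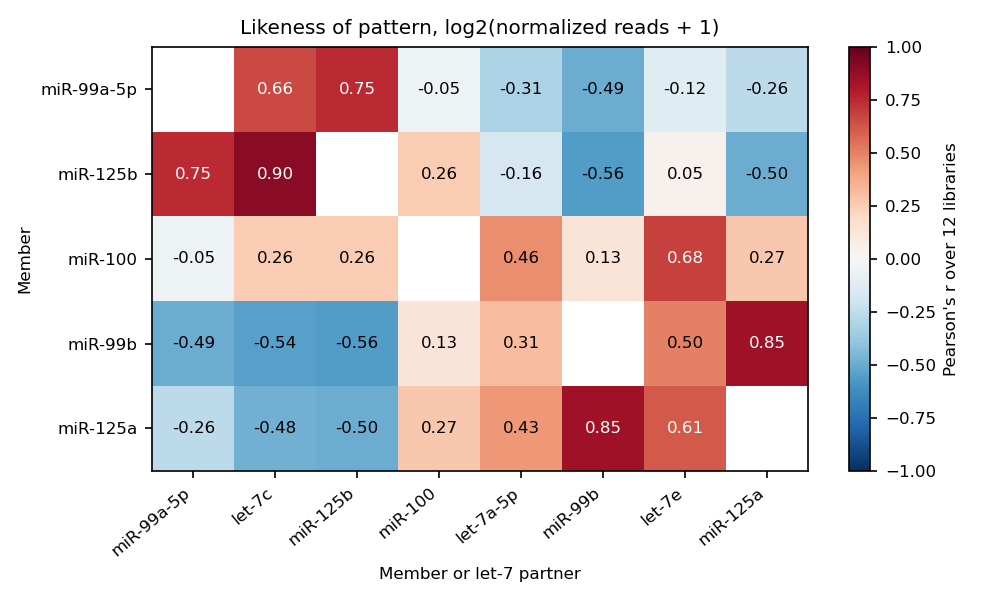
Pearson's r over the 12 libraries, on log2(normalized reads + 1), between each of the 5 miRNAs (rows) and the other members and their let-7 partners (columns, ordered by cluster); the colour runs from -1 (blue) to 1 (red). The highest values are 0.90 for miR-125b and let-7c and 0.85 for miR-99b and miR-125a, neighbours in their clusters, but miR-100 is at 0.68 with let-7e of another cluster and at 0.46 and 0.26 with let-7a-5p and miR-125b of its own; pairs with a common seed are at -0.50, -0.49, -0.05 and 0.13.

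Several markers of other tissues moved with these patterns. The 6 mesenchymal miRNAs looked at, miR-143, miR-145, miR-214, miR-199b and both arms of miR-199a, summed to 98.4 to 187 normalized reads in UL, 105 to 284 in UH, 106 to 553 in SL and 92.4 to 1250 in SH. The 3 libraries with most miR-125b had the 3 highest sums, 553 in SL1, 1250 in SH1 and 753 in SH3. Of these sums, miR-199a-3p alone made up 451, 996 and 416. Over the 12 libraries, r with miR-125b was 0.75 to 0.92 for miR-143, miR-199b and both arms of miR-199a. It was 0.18 for miR-145, and miR-214 was too scarce to be included. In SH2, with the least miR-125b and miR-99a-5p, 3 of the 6 markers were at 0 reads. SH2 was also the shallowest library, SL3 had 2 markers at 0, and the SH2 sum of 92.4 was near the lowest in UL, 98.4. Of the list, miR-199a-3p was called in SH vs. UH (2.0, SE 0.70) and in S vs. U (1.56, SE 0.53), with limma adjusted p of 0.74 and 0.56. The part of these markers in the values of miR-125b, let-7c and miR-99a-5p was not tested. SH3, the highest library for miR-125b and miR-99a-5p, also had the highest erythroid sum, 8362, with 2756 in UH3 the next. Over the 12 libraries, miR-486 had r = 0.53 with miR-99a-5p and 0.37 with miR-125b, and miR-451 had 0.26 and 0.08. The part of the erythroid miRNAs was not tested.

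The endothelial arms miR-126-3p and miR-126-5p, neither at 0 in any library, had values of r of the opposite sign. They summed to 4059 to 7001 normalized reads in UL, 4656 to 11880 in UH, 3523 to 6413 in SL and 1686 to 7665 in SH, with the highest sum in UH2, where miR-125a and miR-99b were highest. Over the 12 libraries, miR-126-3p had r = 0.76 with miR-125a and 0.74 with miR-99b, and r = -0.85 with miR-125b and -0.72 with miR-99a-5p. miR-126-5p was called in SH vs. UH at -1.16 (SE 0.50, limma adjusted p = 0.74). Its part in the values of the members was not tested either. In plasma, which collects vesicles of many tissues, fewer vesicles of a source and fewer copies per vesicle cannot be told apart.

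Related families outside the clusters showed no call of their own. Of the other let-7 miRNAs (let-7b, let-7d, let-7f, let-7g, let-7i and miR-98) 0 of 6 were called in each of the 6 comparisons, and of miR-10a and miR-10b, whose sequences resemble that of miR-100 with a shifted seed, 0 of 2. Of all miRNAs tested, 2.34% (SL vs. UL) to 5.66% (SH vs. UH) were called, so 0 calls in lists this short do not set them apart. In UH vs. UL the groups did not overlap for 1 of the 6 let-7 miRNAs (background 7.49%). This was let-7d, at 0.23 (limma adjusted p = 0.929). In S vs. U the median of miR-10a and miR-10b was -0.33, with 0 of 2 positive, against -0.13 for all miRNAs. The summed reads of miR-10a and miR-10b ran from 182 to 490 normalized reads, lowest in SH3 and highest in UH2. From the marker lists the remaining call was miR-206, a skeletal muscle miRNA, at -2.79 in UH vs. UL (SE 0.73, limma adjusted p = 0.32) and -1.80 in SH vs. SL (SE 0.71, adjusted p = 0.67).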

How the data were processed

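Plasma EV small RNA of 12 libraries was sequenced with a kit that adds unique molecular identifiers. The authors used Cutadapt for trimming and collapsing and Bowtie2 2.2.2 for mapping to UMD3.1, and kept perfect matches to miRBase. The deposited values are a score, tags per 1000000 mapped reads without the decimals. Each value gave back 1 whole read number (0 ambiguous entries). No count test was run on the reads calculated back, a choice made because the deposited values themselves are not counts. These reads did serve for the exact Poisson and binomial intervals. Reads were scaled by TMM factors, written from the published description, to the mean depth. limma 3.58.1 (R 4.3.3, lmFit, eBayes with trend) was fitted to log2(normalized reads + 1) of the groups compared, for miRNAs that 2 or more libraries of a group had read. All tests were two-sided, with Benjamini-Hochberg adjustment over all miRNAs tested. Depth was 21466 to 77433 reads. All pairs of replicates differed by more than sampling noise. The script was tested on simulated data.

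Members and lists were chosen with earlier results of these data known. Named miRNAs are the members, their let-7 partners, miR-99a-3p, the 3 most alike miRNAs of each member and called miRNAs of the marker, other let-7 and miR-10 lists. Libraries with the same number were paired because the study sampled the same heifers. The correlation of their deviations from the group means, over 238 miRNAs, was 0.10, 0.06 and -0.05 for L1 to L3 and 0.05, 0.21 and 0.13 for H1 to H3. The alternatives were other size factors, filters, pseudocounts and fits, the heifer as a block and leaving out libraries. Python 3.11.15 with scipy 1.17.1 was used for exact tests.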

Additional observations from a re-analysis of the deposited data

How the results depend on the processing

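The alternatives that leave every library in changed no call of a member, and 197 of 200 such estimates of members kept their direction. With library sizes in place of TMM factors, miR-99b in SH vs. SL went to -0.054, miR-100 in SH vs. UH to -0.042 (-0.0039 with a pseudocount of 2) and let-7c in UH vs. UL to -0.083, and the U correlations went to 0.33 (miR-99a-5p and let-7c), 0.59 (miR-99a-5p and miR-125b), 0.79 (let-7c and miR-125b), 0.76 (miR-100 and let-7a-5p), -0.76 (miR-100 and miR-125b) and -0.28 (let-7a-5p and miR-125b), those of S to 0.011 (miR-99b and let-7e), 0.49 (miR-100 and let-7a-5p), -0.38 (let-7a-5p and miR-125b), -0.15 (let-7e and miR-125a) and 0.82 (miR-99b and miR-125a). Without the 2 farthest libraries r was -0.64 for miR-99a-5p and miR-125b, 0.81 for miR-100 and let-7a-5p, 0.13 for miR-100 and miR-125b, 0.64 for let-7a-5p and miR-125b, 0.99 for miR-99b and let-7e, 0.91 for miR-99b and miR-125a and 0.91 for let-7e and miR-125a in U, and 0.94 for let-7c and miR-125b, 0.29 for miR-99a-5p and miR-125b, 0.75 for miR-100 and let-7a-5p, 0.41 for miR-100 and miR-125b, -0.34 for let-7a-5p and miR-125b and 0.25 for miR-99b and let-7e in S. let-7c in S vs. U was 1.02 with median-of-ratios factors. The cause of these changes was not tested.

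The number of called miRNAs of any kind fell with a minimum mean of 10 reads, which tests fewer miRNAs, to 1 in UH vs. UL, 4 in SH vs. SL, 6 in SH vs. UH, 0 in SL vs. UL, 4 in S vs. U and 4 in the interaction. It was 10 in UH vs. UL without a filter, 18 in SH vs. SL and 10 in SL vs. UL with all 4 groups in the fit, and 3 in SL vs. UL and 4 in S vs. U with a pseudocount of 2. With the replicate block, the heifer as a term, it was 3 in SL vs. UL, and the pairing changed no call of a member.

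With any 1 library left out, there were 5 to 10 calls in UH vs. UL, 8 to 34 in SH vs. SL, 6 to 24 in SH vs. UH, 7 to 15 in SL vs. UL, 5 to 16 in S vs. U and 7 to 21 in the interaction. The highest counts of SH vs. SL, SH vs. UH and the interaction were those without SH2. The ranges of estimates that changed sign or call were as follows. In UH vs. UL they were -0.56 to 0.36 for miR-99b, -0.094 to 0.81 for miR-100, -0.54 to 0.31 for miR-125a, -0.16 to 0.095 for miR-125b and -0.11 to 0.21 for let-7c. In SH vs. SL they were -0.41 to 0.36 for miR-99a-5p, -0.36 to 0.45 for miR-99b, 0.13 to 1.14 for miR-125b and 0.14 to 1.36 for let-7c. In SH vs. UH they were -0.70 to 0.22 for miR-99b, -0.51 to 0.39 for miR-100, -0.66 to 0.19 for miR-125a, 0.45 to 1.46 for miR-125b and 0.76 to 1.98 for let-7c, whose call was lost without any 1 library other than SH2. In SL vs. UL they were 0.42 to 1.13 for miR-100, -0.43 to 0.18 for miR-125a and -0.084 to 0.58 for miR-125b. In S vs. U they were -0.36 to 0.018 for miR-125a and 0.70 to 1.24 for let-7c. In the interaction they were -0.20 to 0.57 for miR-99a-5p, -0.27 to 0.65 for miR-99b, -0.54 to 0.31 for miR-125a, 0.16 to 1.17 for miR-125b and 0.11 to 1.33 for let-7c. The mean ratio difference between cycles was 0.52 to 0.97 for the miR-125 pair and 0.36 to 0.84 for the miR-99 pair. Depth limits miR-100, with 6 to 33 reads per library, and miR-99a-3p, with 0 to 6.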
